A study of Mus musculus with 28 samples.

Results

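ChIP-exo binding events of FoxA1 in mouse embryonic stem (ES) cells were compared between an anti-FoxA1 and an anti-FLAG antibody, 24 and 48 h after the factor was switched on. The 4 event lists, 1 per antibody and time, held 106743 events, out of 162571 in the 14 lists of the series used here. Anti-FoxA1 gave 35134 events at 24 h and 41726 at 48 h, and anti-FLAG gave 15984 and 13899. Each event was placed in a class by whether the list of the other antibody at the same time had an event within 100 bp. At 24 h, 14244 anti-FoxA1 and 13743 anti-FLAG events had such a partner, 20890 anti-FoxA1 events had none (anti-FoxA1 alone) and 2241 anti-FLAG events had none (anti-FLAG alone). At 48 h the numbers were 12954, 12537, 28772 and 1362.

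All 4 libraries came from a line made from MC1 ES cells (129S6/SvEvTac) that carries FoxA1 with a C-terminal His6-FLAG tag at the Rosa26 locus, under a promoter that doxycycline (Dox) keeps silent. The cells were kept with Dox, LIF and puromycin, then Dox was washed out and they were grown for 24 or 48 h in differentiation medium with serum and crosslinked with formaldehyde. By the labels the libraries differ in the antibody (F1804 from Sigma against FLAG, ab23738 from Abcam against FoxA1) and in the time. Whether the line is 1 clone, and whether libraries share a culture, is not stated in the labels. There was 1 library per antibody and time, so no replicate spread exists and no test was made. Intervals on shares are Wilson 95% intervals, intervals on differences are Newcombe 95% intervals, and both cover counting error only.

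FoxA1 is a winged-helix (Forkhead) transcription factor of endoderm and liver, known as a pioneer factor because it can bind its sites on nucleosomal DNA and open them to other factors. It binds sequences related to TGTTTAC, which reads GTAAACA on the opposite strand. In ChIP-exo an exonuclease digests the immunoprecipitated DNA up to the crosslinked protein, so that an event marks a position to within a few bases. The anti-FLAG antibody can recognise only the tagged transgene product, whereas the anti-FoxA1 antibody can recognise the tagged protein and any FoxA1 made from the cell's own gene.

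The files hold called positions, each 1 bp wide on the mm10 genome, and no reads, so sequencing depth is unknown. The caller gave every event a score. Scores ran from 43 to a ceiling of 1000, and their scale is not stated in the files or labels. Before Dox removal the same antibodies gave almost nothing: at 0 h, 15 anti-FoxA1 events and 2 anti-FLAG events could be placed relative to genes. The share of events on chromosome X was 1.13 to 1.94% in every class, and no event of the 4 lists lay on the mitochondrial genome. Clusters of 5 or more events, each up to 500 bp from the next, held at most 0.361% of any list.

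Promoter sequences around events that were present at both times show what the antibodies marked. The first 5 are the promoters with the highest summed score among those with an event of both antibodies at 24 h and at 48 h. Sequences are RefSeq promoter windows on GRCm38.p6 (mm10), written 5′ to 3′ on the strand of the gene, with base 41 of each at the 48 h anti-FoxA1 event. Capitals mark a Forkhead motif on either strand. The motifs searched were TGTTTAC, which is the common core, then a first variant that reads TGTTTGC, and finally a second variant that reads TGTTGAC. Other related sequences were not searched for, so a window without a match can still hold one.
Trmt13: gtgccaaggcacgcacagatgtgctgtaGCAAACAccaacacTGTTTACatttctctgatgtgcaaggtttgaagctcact
Lpar1: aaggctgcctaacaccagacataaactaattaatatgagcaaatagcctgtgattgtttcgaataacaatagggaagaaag
Rabgef1: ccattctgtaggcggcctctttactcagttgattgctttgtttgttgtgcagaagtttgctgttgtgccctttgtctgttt
Rptn: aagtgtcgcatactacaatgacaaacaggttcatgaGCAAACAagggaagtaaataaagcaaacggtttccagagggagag
Agr2: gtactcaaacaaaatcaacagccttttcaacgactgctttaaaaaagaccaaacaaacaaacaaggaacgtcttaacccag

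The Trmt13 window (chr3:116614725-116614805, minus strand) covers bases -218 to -138 from the start of a gene for a tRNA methyltransferase. All 4 lists scored it 1000, at positions no more than 3 bp apart. It is the only one of these 5 windows with a pair of matches, a TGTTTAC and a TGTTTGC, and the event sat 5 bp before the centre of the TGTTTAC. The Lpar1 window (chr4:58499456-58499536, minus strand), upstream of a lysophosphatidic acid receptor gene, scored 1000 and 1000 with anti-FoxA1 and 977 and 680 with anti-FLAG at 24 and 48 h. Rabgef1 (chr5:130186974-130187054, plus strand), which encodes an exchange factor for Rab GTPases, scored 1000 and 1000 against 582 and 295. Neither of those windows holds any of the 3 motifs. Rptn (chr3:93393479-93393559, plus strand), a gene of the epidermal barrier, scored 876 and 1000 against 379 and 284, with a TGTTTGC match on the opposite strand centred 1 bp from the event. Agr2 (chr12:35992705-35992785, plus strand), a protein disulfide isomerase gene of secretory epithelia, scored 461 and 1000 against 320 and 572, and holds none of the 3 motifs.

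The next 5 sequences are promoters where anti-FoxA1 called an event at both times and anti-FLAG called none within 100 bp at either, again those with the highest summed score. They were added after the values were seen, and Kif9, whose event lay 25 bp inside the transcript, was left out.
Syne3: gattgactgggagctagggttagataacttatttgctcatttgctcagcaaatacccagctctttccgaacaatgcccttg
Eif2d: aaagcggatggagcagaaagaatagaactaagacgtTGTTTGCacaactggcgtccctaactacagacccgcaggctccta
Bet1l: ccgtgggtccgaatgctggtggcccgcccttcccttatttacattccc
Tnrc18: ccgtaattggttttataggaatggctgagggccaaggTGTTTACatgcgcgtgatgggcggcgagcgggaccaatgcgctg
Stk11ip: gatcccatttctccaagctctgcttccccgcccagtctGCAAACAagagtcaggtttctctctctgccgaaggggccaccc

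At each time the anti-FoxA1 scores of these 5 promoters were lower than those of the 5 shown for both antibodies. Both sets were picked by score, so this does not describe the classes. Some promoters with both antibodies scored lower, such as one of Selenop with 91 and 77. Syne3 (chr12:104998802-104998882, minus strand), which encodes a nesprin of the nuclear envelope, scored 396 at 24 h and 503 at 48 h. Eif2d (chr1:131153036-131153116, plus strand), a translation initiation factor gene, scored 253 and 302. Bet1l (chr7:140856384-140856431, minus strand), a Golgi SNARE gene, scored 244 and 300 at an event 5 and 8 bp before the start. The Tnrc18 event (chr5:142817791-142817871, minus strand) scored 239 and 291 and lay on the central base of a TGTTTAC. Stk11ip (chr1:75521327-75521407, plus strand), which encodes a partner of the kinase LKB1, scored 244 and 242 at the same base at both times. In Eif2d and Stk11ip the event lay 1 bp from the centre of a TGTTTGC, while Syne3 and Bet1l hold none of the 3 motifs. Across its event Bet1l reads tatttac, which was not among the motifs searched.

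Most anti-FLAG events had an anti-FoxA1 event beside them, and most anti-FoxA1 events had no anti-FLAG event beside them. The partner share was 86.0% (85.4–86.5) of anti-FLAG events at 24 h and 90.2% (89.7–90.7) at 48 h. For anti-FoxA1 it was 40.5% (40–41.1) and 31.0% (30.6–31.5). The anti-FoxA1 lists are the longer ones, which by itself makes these shares unequal. When only the highest-scoring anti-FoxA1 events were kept, about as many as the anti-FLAG list had, the anti-FoxA1 share was 68.9% at 24 h and 69.4% at 48 h. The anti-FLAG share was then 67.0% and 67.9%. Lists of about equal length make these shares nearly equal by construction, so their likeness is not a result.

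Events seen with both antibodies scored higher than those seen with either alone. The scores come from the lists that define the classes, so these values are a description. At 24 h the median anti-FoxA1 score was 176 (upper quartile 312) with a partner and 63 (upper quartile 92) without. At 48 h it was 224 (382) with and 69 (104) without. The anti-FLAG median was 108 with and 56 without a partner at 24 h. At 48 h it was again 56 without a partner, with an upper quartile of 72, and the upper quartile with a partner was 198. At the ceiling of 1000 stood 347 anti-FoxA1 events with a partner at 24 h and 478 at 48 h, and no anti-FoxA1 event without one. With anti-FLAG, 271 and 213 events with a partner reached it, and a single event without a partner did, near Eef1e1 at 24 h.

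Across the score range the partner share climbed along a different course for each antibody. In the lowest decile of the anti-FoxA1 list it was 8.26% (7.39–9.21) at 24 h and 3.28% (2.78–3.87) at 48 h. In the highest decile it was 95.1% (94.4–95.8) and 94.7% (94.0–95.3). The anti-FLAG list started at 64.5% (62.1–66.8) and 73.0% (70.6–75.3) in its lowest decile and reached 98.9% and 99.4% in its highest. The weakest anti-FLAG calls had a partner about as often as the anti-FoxA1 calls of decile 8 at 24 h (65.3%) and of decile 9 at 48 h (74.2%).

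**Figure D1:**
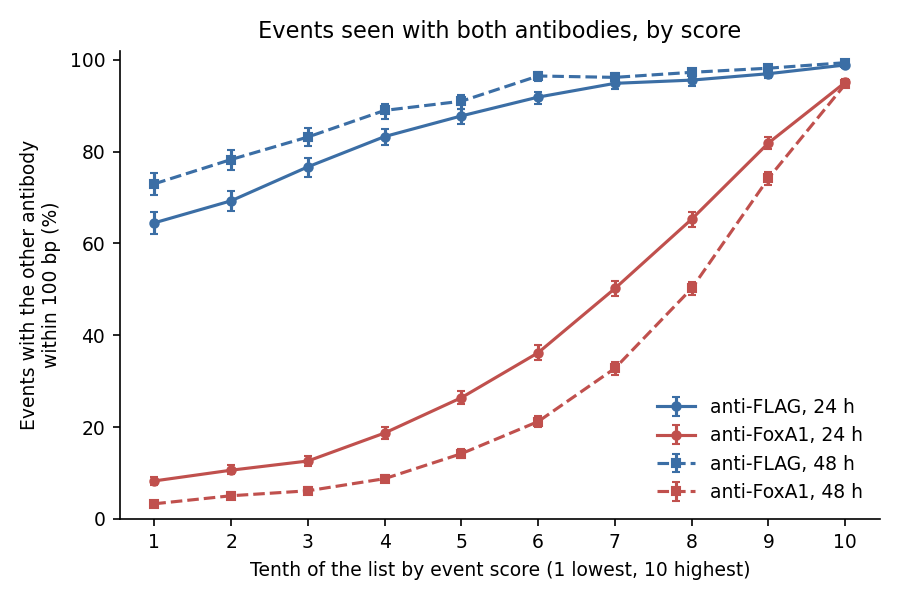
Share of events (%, vertical axis) with an event of the other antibody within 100 bp, by decile of each list's scores (horizontal axis, 1 lowest, 10 highest), for the 4 lists, with Wilson 95% intervals as bars. The anti-FoxA1 lines run from 8.26% and 3.28% up to 95.1% and 94.7%, and the anti-FLAG lines stay between 64.5% and 99.4%.

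At shared sites the antibodies placed the event within a few bases of each other. Mutually nearest pairs within 100 bp numbered 13629 at 24 h and 12399 at 48 h. The median distance between the paired positions was 7 bp (quartiles 2 and 25 bp) at 24 h and 5 bp (1 and 19 bp) at 48 h. They fell on the same base in 7.10% of pairs at 24 h and 11.8% at 48 h, and within 5 bp in 43.1% and 52.0%. The limit of 100 bp lies in the tail of this distribution, with 335 pairs at 24 h and 231 at 48 h between 81 and 100 bp and 146 and 110 in the next 20 bp.

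Neither antibody lay to a fixed side of the other along the chromosome. The anti-FLAG position had the higher coordinate in 6403 pairs and the lower in 6259 at 24 h, and in 5349 and 5593 at 48 h. The median signed offset was 0 bp at both times, and the mean was 0.30 bp at 24 h and -0.48 bp at 48 h. The strand of the bound sequence was not used, so an offset tied to the orientation of the motif would not show in these counts. Where a site was paired at both times (8480 sites), the offset at 24 h and at 48 h had a Pearson r of 0.05 and a Spearman rho of 0.07, given as a description over sites of the same 4 libraries.

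Pairs with higher scores lay closer together. By the lower of the 2 scores of a pair, the median distance went from 12 bp for scores of 43 to 49 to 4 bp for scores of 250 and more at 24 h, and from 7 to 3 bp at 48 h. The same-base share was 3.61% in the lowest and 10.6% in the highest of these bands at 24 h. Within an antibody the distance between times was of the same size. Anti-FoxA1 positions at 24 and 48 h were a median 5 bp apart in 24794 pairs, and anti-FLAG positions 7 bp apart in 9632 pairs. These 4 comparisons draw on the same 4 lists. As background, the event caller models a sequence motif together with the tag pattern, which can pull positions to the same base, and the part of this in the offsets was not tested.

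**Figure D2:**
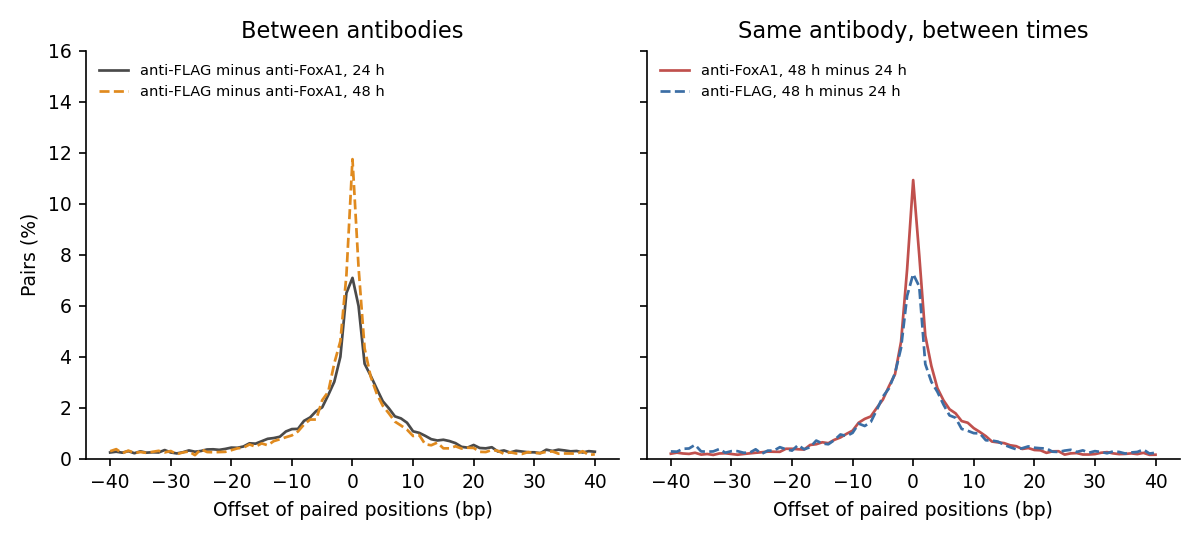
Share of mutually nearest pairs (%, vertical axis) by signed offset in bp (horizontal axis, drawn from -40 to 40), between antibodies at 24 and 48 h (left) and within an antibody between times (right). All 4 curves peak at an offset of 0, at 7.10% and 11.8% on the left and 10.9% and 7.25% on the right.

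The scores of paired events went together, and the anti-FoxA1 score was usually the higher. Spearman's rho over pairs was 0.69 at 24 h and 0.68 at 48 h, a description over pairs from 2 libraries each. The anti-FoxA1 score was higher in 73.8% of pairs at 24 h and in 85.4% at 48 h. The median ratio of the anti-FoxA1 to the anti-FLAG score was 1.42 (upper quartile 2.08) at 24 h and 1.85 (upper quartile 2.74) at 48 h. Median scores of the paired events were 174 with anti-FoxA1 and 108 with anti-FLAG at 24 h. A score is not calibrated between libraries, so the ratio compares calls and not amounts of bound protein.

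The classes differed in how often they lay at gene starts. At 24 h, 757 of 20865 anti-FoxA1-alone events, 3.63% (3.38–3.89), lay within 1 kb of the start of a protein-coding gene, against 243 of 14227, 1.71% (1.51–1.93), of those shared with anti-FLAG. The difference was 1.92 percentage points (1.59–2.25). At 48 h the shares were 3.82% (upper bound 4.05) and 1.62% (1.42–1.86), a difference of 2.20 points (1.88–2.50). Within 250 bp of a start the gap was wider in proportion, with 1.33% against 0.394% at 24 h and 1.40% against 0.371% at 48 h, a ratio of 3.38 and 3.78. Events in genes at large did not separate these classes: 50.7% and 50.5% at 24 h, and 52.7% and 52.6% at 48 h, lay inside a protein-coding gene, with differences of 0.20 and 0.08 points, with intervals that included 0.

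Over all scores at 24 h, anti-FLAG-alone events lay at gene starts less often than anti-FLAG events with a partner. They were within 1 kb of a start in 19 of 2239 cases at 24 h, 0.849% (0.544–1.32), which is 0.86 points below the anti-FLAG events with a partner (interval of the difference -1.24 to -0.34). At 48 h the share was 1.10% (0.670–1.81), and the interval of the difference included 0, with an upper bound of 0.23 points. More of them lay outside genes and over 50 kb from any gene end, 22.7% at 24 h and 20.6% at 48 h, against 17.1% and 17.1% of the anti-FLAG events with a partner (differences of 5.60 points, 3.79 to 7.49, and 3.48 points, 1.31 to 5.80). Anti-FLAG-alone events at 24 h were also more often, by intervals that do not overlap, within 1 kb of an end of a small nuclear RNA gene, 14 of 2239 or 0.625% (0.373–1.05), compared with 0.0801% (0.0448–0.143) of those with a partner. At 48 h the shares were 0.294% (0.114–0.754; 4 of 1360) and 0.0799% (0.0434–0.147), with intervals that overlap. Ends of tRNA genes were within 1 kb of 0.105% (0.0696–0.160) of anti-FoxA1-alone and 0.0141% (0.00386–0.0512) of shared anti-FoxA1 events at 24 h, and of 0.118% (0.0847–0.165) and 0.0232% (0.00789–0.0682) at 48 h.

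The excess of anti-FoxA1-alone events at gene starts was present at each level of the score. Among anti-FoxA1 events scored 43 to 49 at 24 h, 3.86% (3.38–4.41) of the alone events and 1.52% (0.770–2.96) of the shared events were at a start. Among those scored 250 and more, the shares were 3.52% (2.15–5.73) and 2.01% (1.65–2.45). At 48 h they were 4.28% and 1.56% in the lowest band and 4.23% (2.92–6.08) and 1.87% (1.55–2.26) in the highest. In all 7 score bands at both times the alone share was the higher, and the interval of the difference included 0 in only the 2 lowest bands of 48 h, which held few shared events.

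**Figure D3:**
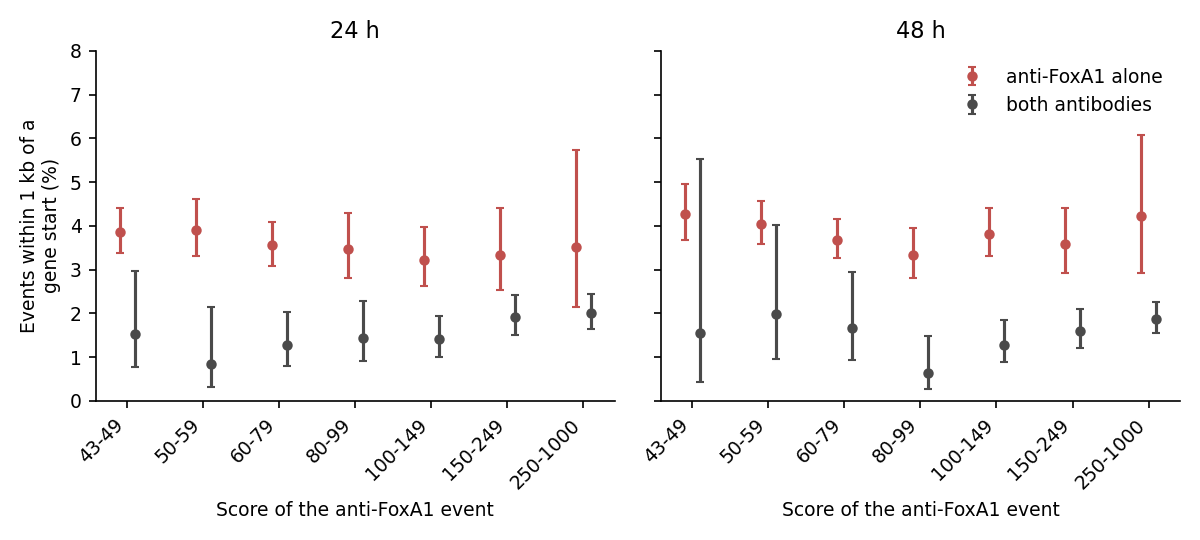
Share (%) of anti-FoxA1 events near a gene start, at most 1 kb away (, vertical axis) by band of event score (horizontal axis), at 24 h (left) and 48 h (right), for events with no anti-FLAG event within 100 bp and for events with one. Points are shares and bars are Wilson 95% intervals, and the anti-FoxA1-alone points lie above the both-antibody points in all 7 bands at both times.

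Around the start, anti-FoxA1-alone events were densest in the 250 bp upstream. At 24 h they numbered 4.03 per 1000 events in the 100 bp before the start and 3.48 per 100 bp in the 150 bp before that. At 48 h these densities were 3.24 and 4.20. Shared events had 0.703 and 1.78 at 24 h, and 0.928 and 1.34 at 48 h. In the first 100 bp of the transcript anti-FoxA1-alone events numbered 2.56 and 2.86 per 1000 events, and shared events 0.278 and 0.383. Both classes were thus denser before the start than after it, and shared events thinned out already in the last 100 bp before it.

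The anti-FoxA1 lists as wholes had more events at starts than the anti-FLAG lists, and other lists of the series spanned the same range. The share within 1 kb of a start was 2.85% with anti-FoxA1 at 24 h and 3.14% at 48 h, and 1.58% and 1.56% with anti-FLAG. The combined FoxA1 list at 24 h, taken to join 2 anti-FLAG libraries and 1 anti-FoxA1 library, had 3.08% (2.90–3.27). Lists of other tagged factors made with anti-FLAG at 24 h had 2.53% for FoxC1, 1.44% for FoxL2 and 2.99% for FoxP3. The lists of other factors made with anti-FLAG thus ranged from 1.44% to 2.99%. They differ from the FoxA1 lists in the factor as well, and the part of the antibody in these shares was not tested. Among anti-FoxA1-alone events, those that also lay in the combined list were at starts more often, 4.52% (4.08–4.99) against 3.08% (2.79–3.39) at 24 h and 4.41% (4.03–4.83) against 3.50% (3.24–3.77) at 48 h.

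Promoters could be read base by base in the 300 bases from 250 before to 50 after the start, in 21262 windows of 17491 protein-coding genes. Anti-FoxA1-alone events fell in 240 windows at 24 h and 350 at 48 h, shared events in 50 and 44, and anti-FLAG-alone events in 2 and 3. At least 1 of the 3 Forkhead motifs, on either strand, was present in 52.9% (46.6–59.1) of the windows with an anti-FoxA1-alone event at 24 h and 47.7% (42.5–52.9) at 48 h. It was present in 48.0% (34.8–61.5) and 50% (35.8–64.2) of the windows with a shared event, and in 9.35% (8.96–9.74) of all windows. The promoters marked by anti-FoxA1 alone thus held at least 1 of these 3 motifs about as often as those marked by both antibodies, within wide intervals. Other related sequences were not counted.

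The motif variants differed in their share. TGTTTAC was in 29.6% (24.2–35.6) of anti-FoxA1-alone windows and 16% (8.34–28.5) of shared windows at 24 h, and in 24.0% (19.8–28.7) and 18.2% (9.51–32.0) at 48 h, with 3.01% over all windows. TGTTTGC was in 17.9% and 32.0% (20.8–45.8) at 24 h and in 17.1% and 27.3% at 48 h, with 4.58% over all. TGTTGAC was in 9.58% and 4.00% at 24 h and 9.43% and 11.4% at 48 h, with 2.08% over all. The intervals of the 2 classes overlap for each motif at both times. No window can match the same 7 bases to more than 1 of these motifs, but a window can hold several.

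The base composition of the windows differed too. Windows with an anti-FoxA1-alone event had a median of 57.3% G and C and 17 CpG pairs at both times, and the medians of all windows were 56.3% and 13. Windows with a shared event had 51.7% and 5.50 CpG pairs at 24 h, and 50.5% and 6 at 48 h. The promoters with an anti-FoxA1-alone event were thus richer in CpG than the median promoter, and those with a shared event poorer. As background, CpG-rich promoters are common in genes active in most cell types.

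Many events in these windows lay on a motif. Of 227 anti-FoxA1-alone events in these windows at 24 h, 85, or 37.4% (31.4–43.9), were within 5 bp of the centre of a motif, and 122 of 324, or 37.7% (32.6–43), at 48 h. For shared events it was 12 of 51, 23.5% (14.0–36.8), and 14 of 41, 34.1% (21.6–49.5). Read in the direction of the motif, the commonest position of anti-FoxA1-alone events was 2 bp past the centre at 24 h (26 events, with 19 at 1 bp) and 1 bp past it at 48 h (59 events). Outside the promoter windows no sequence of this build was used, so these motif shares describe a small part of each list. The caller's model of a sequence motif, given above as background, can also place events on motifs. Its part in these distances and in the motif shares of the windows was not tested.

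**Figure D4:**
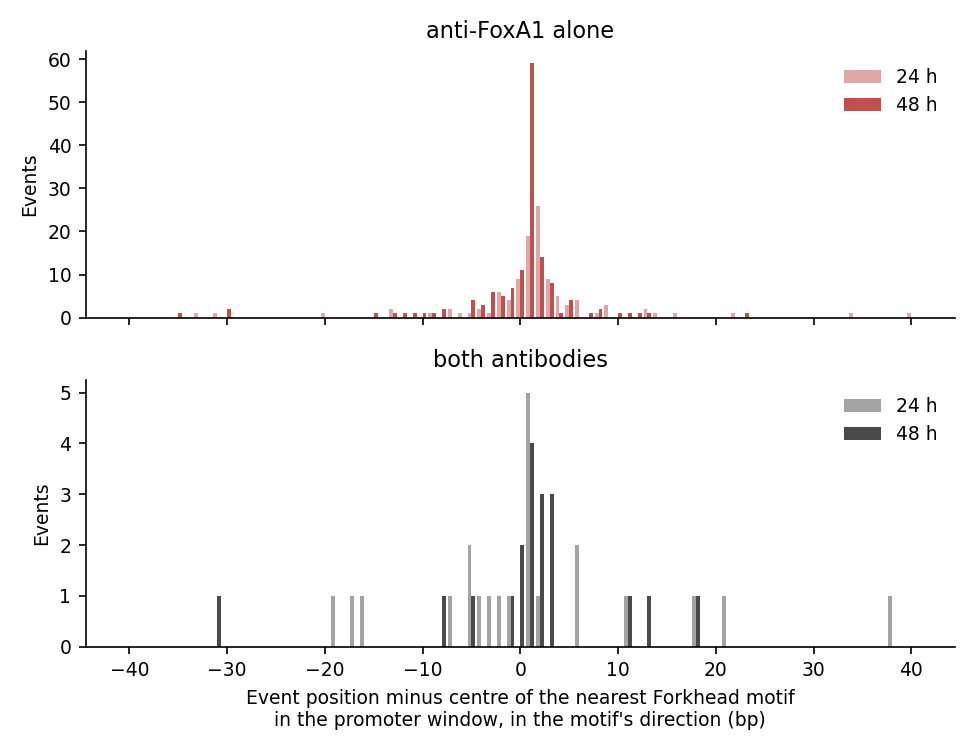
Number of events in promoter windows (vertical axis) by distance in bp from the centre of the nearest of the 3 Forkhead motifs, in the direction of the motif (horizontal axis), for anti-FoxA1-alone events (top) and events with both antibodies (bottom) at 24 and 48 h. The tallest bars stand 1 to 2 bp past the centre, with 59 anti-FoxA1-alone events at 1 bp at 48 h.

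Over both times, 154 genes had a promoter window with an anti-FoxA1-alone event at 24 h and again at 48 h, and 94 of them (61%) had a motif in it. For both antibodies these were 30 genes, 16 of them (53.3%) with a motif. Beside the 5 shown, the latter included Prox1, a homeobox regulator of liver and lymphatic endothelium, with scores of 274 and 565 with anti-FoxA1, and 111 with anti-FLAG at 48 h. Others were Fbxo6, a ubiquitin ligase subunit (364 and 919 against 319 and 484), Isg20, an exonuclease (443 and 697 against 126 and 174), and Ect2, an exchange factor of cytokinesis (540 and 615 against 164 and 120). Scores that were lower at 48 h than at 24 h occurred too, as at Pml, the gene of a nuclear body protein (403 and 317 with anti-FoxA1), and Il33, a cytokine gene (260 and 230). Among anti-FoxA1-alone promoters, Etv5, a target of FGF signalling, scored 156 and then 266, at 173 and 177 bp before the start.

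High-scoring events of a single antibody were of a nearby and a distant kind, in different shares for the 2 antibodies. Of the anti-FLAG-alone events scored 250 or more, 53 of 54 at 24 h and 26 of 28 at 48 h lay within 200 bp of an anti-FoxA1 event, so most were just outside the pairing distance. Of the 426 and 639 such anti-FoxA1-alone events, 164 (38.5%) and 131 (20.5%) lay within 200 bp of an anti-FLAG event of that time. The anti-FoxA1 lists are the longer ones, which by itself makes a nearby event of the other antibody likelier for anti-FLAG events. Another 242 (56.8%) and 465 (72.8%) of the anti-FoxA1-alone events lay over 1 kb from any anti-FLAG event. These distant events recurred: 233 of the 242 and 456 of the 465 were in the anti-FoxA1 list of the other time, 171 and 367 were in the combined FoxA1 list, and 69 and 212 had an anti-FLAG event at the other time. Only 4 at each time were in none of these lists.

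The distant kind included Slco3a1, Flrt3 and Creb3l2. An event inside Slco3a1, an organic anion transporter gene (chr7:74430742 at 24 h, chr7:74430702 at 48 h), scored 797 and 894 with anti-FoxA1. The nearest anti-FLAG event was 107789 and 107855 bp away, and the combined list had no event there. An event 77336 bp from Flrt3, which encodes a transmembrane protein of cell guidance, scored 746 at 24 h and 661 at 48 h, with no anti-FLAG event for 206218 bp and a score of 120 in the combined list. In Creb3l2, a transcription factor gene of the secretory pathway, an anti-FoxA1-alone event scored 764 at 48 h, 16648 bp from any anti-FLAG event of that time. The same site scored 846 at 24 h and 828 in the combined list, and had an anti-FLAG event of score 112 at 24 h.

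The nearby kind included a site 2833 bp from Eef1e1, a component of the aminoacyl-tRNA synthetase complex. At 24 h anti-FoxA1 scored 803 and anti-FLAG 1000 there, at positions 135 bp apart, so that a strong event of each antibody counted as alone. At 48 h the anti-FoxA1 event scored 886 and lay 109 bp from the nearest anti-FLAG event. Eif4b, a translation initiation factor gene (713 with anti-FoxA1 at 24 h, 103 bp from an anti-FLAG event), Bcas3 (927 at 48 h, 117 bp) and Zscan2 (763 at 48 h, 107 bp) were of the same kind. With anti-FLAG it held for Fndc1 (531), Xbp1 (519, 111 bp), a transcription factor gene of the unfolded protein response, Cblb (496, 103 bp) and Trpm6 (484) at 24 h. At 48 h it held for Jade1 (859), Lypd11 (708), Tbx19 (509, 127 bp) and Tle4 (468, 140 bp), while Gpr161 (537) was 224 bp from an anti-FoxA1 event. Distances in brackets are to the nearest event of the other antibody. These sites are named by the nearest gene, and those of Fndc1, Xbp1 and Jade1 lay 152754, 21307 and 173340 bp outside it. The Xbp1 site scored 1000 in the combined FoxA1 list, and so did the Lypd11 site.

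Over all scores the anti-FLAG-alone events were more spread out. Of them, 24.5% at 24 h and 30.8% at 48 h were between 100 and 200 bp from an anti-FoxA1 event, and 33.2% and 29.4% were over 10 kb and up to 100 kb away. For anti-FoxA1-alone events only 5.53% and 3.12% were that close to an anti-FLAG event, and 46.4% and 49.6% were over 10 kb and up to 100 kb away.

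Shared events were found in the combined FoxA1 list more often than events of either antibody alone. The combined FoxA1 list had an event within 100 bp of 73.4% (72.6–74.1) of shared events at 24 h, 38.3% (37.6–38.9) of anti-FoxA1-alone events and 31.9% (30.0–33.8) of anti-FLAG-alone events. At 48 h these were 73.0%, 35.4% and 26.6%. The combined list holds more anti-FLAG than anti-FoxA1 libraries, and anti-FLAG-alone events were found in it less often than anti-FoxA1-alone events, with a difference of -6.42 points (-8.42 to -4.35) at 24 h. The gap between shared and alone events was smaller but present at equal scores. Among anti-FoxA1 events of 250 and more at 24 h, 89.3% (88.4–90.1) of shared and 66.2% (61.6–70.5) of alone events were in the combined list. Among those of 43 to 49 it was 42.9% (38.8–47.2) and 23.4% (22.3–24.5).

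Over all scores, shared events also had the highest share in the 12 h lists and in the lists of other Forkhead factors. The anti-FoxA1 list at 12 h covered 41.5% of shared events of 24 h, 9.65% of anti-FoxA1-alone events and 5.80% of anti-FLAG-alone events. The combined lists of FoxC1, FoxL2 and FoxP3 covered 12.4% (11.8–12.9), 4.66% (4.38–4.95) and 5.93% (5.03–6.99) in the same order. FoxL2, the factor of ovarian granulosa cells, covered 6.15%, 1.91% and 3.53%, and FoxP3, the factor of regulatory T cells, 6.29%, 2.90% and 2.14%, so the order of the classes seen with 1 antibody alone was not the same for every factor. For anti-FLAG-alone events the anti-FLAG list of the other time covered 27.2% and 30.7%, and for anti-FoxA1-alone events only 11.2% and 14.8%.

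**Figure D5:**
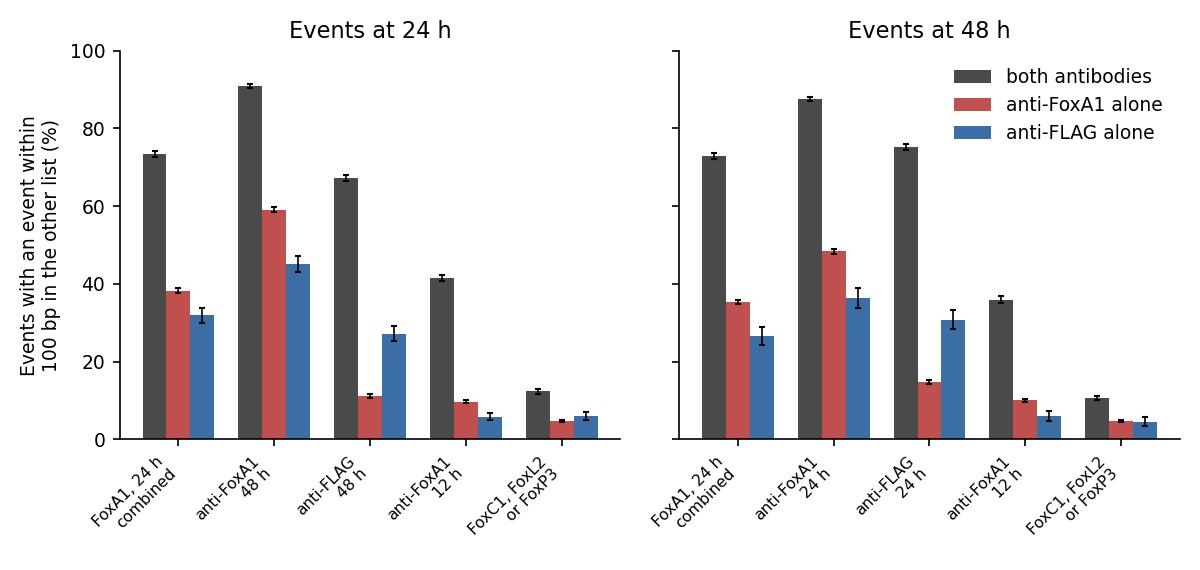
Share of events (%, vertical axis) with an event within 100 bp in other lists of the series (horizontal axis), by class, for events at 24 h (left) and 48 h (right), with Wilson 95% intervals as bars. Bars for both antibodies and for anti-FoxA1 alone are over anti-FoxA1 positions, and the both-antibody bar is the tallest for every list, for example 73.4% against 38.3% and 31.9% in the combined FoxA1 list at 24 h.

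Joined within 100 bp, the 4 lists made 52222 sites, and the class of a site was often different at the other time. Sites with both antibodies at both times numbered 8896, 17% of all, with median scores of 229 and 279 with anti-FoxA1 and 151 and 132 with anti-FLAG, and 82.8% (82.0–83.6) of them were in the combined list. Sites of anti-FoxA1 alone at both times numbered 10123, or 19.4%, with medians of 73 and 85, and 47.2% (46.3–48.2) were in the combined list. Sites of anti-FLAG alone at both times numbered 120, or 0.230%. At gene starts lay 1.72% (1.47–2.01) of the first and 4.63% (4.24–5.05) of the second.

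Sites shared at 24 h mostly kept anti-FoxA1 when they lost anti-FLAG. Of 13570 such sites, 65.6% (64.8–66.4) were shared at 48 h, 26.2% (25.4–26.9) were called by anti-FoxA1 alone, 1.55% by anti-FLAG alone and 6.73% by neither. Those that passed to anti-FoxA1 alone had median scores of 127 with anti-FoxA1 and 67 with anti-FLAG at 24 h, lower than the sites that stayed shared. Of the 2108 anti-FLAG-alone sites of 24 h, 50.9% (48.8–53.1) were in neither list at 48 h, 24.3% had become anti-FoxA1 alone, 19.0% shared and 5.69% were again anti-FLAG alone. The 48 h anti-FLAG list is shorter and the 48 h anti-FoxA1 list longer than at 24 h, and these moves cannot be told apart from the change in list length.

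Counts of events near genes are of events within 50 kb of either end of a gene, and neighbouring genes share events. A shared event was this near to 10550 of 21881 protein-coding genes at 24 h (48.2%) and to 10285 at 48 h (47.0%). An anti-FoxA1-alone event without a shared event was near 5527 (25.3%) and 6488 (29.7%), and an anti-FLAG-alone event near 2666 (12.2%) and 1632 (7.46%). At gene starts, within 1 kb, these were 226 of 17491 genes (1.29%) and 198 (1.13%) for shared events, and 711 (4.06%) and 1024 (5.85%) for anti-FoxA1 alone without a shared event.

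The genes with the most shared events were Zfp960 with 17 and Zfp97 with 16, zinc finger genes of chromosome 17, and Prdm14, a repressor that guards naive pluripotency, with 16 at 24 h. Next came Hs3st3b1, a heparan sulfate sulfotransferase gene, Zmynd8, a reader of histone marks, and Mboat2, a lysophospholipid acyltransferase gene, with 15 each, and Jarid2, a cofactor of the Polycomb complex, and Tango6 with 14 each. At 48 h the first were Mboat2 (15), Tango6 (13), Cox10 of haem synthesis (12), and Kidins220, Zfp960, Pkd1l1, Ccdc34 and Hs3st3b1 with 11 each. Prdm14 went from 16 shared and 7 anti-FoxA1-alone events to 7 and 14, and Zmynd8 from 15 and 9 to 7 and 22. Mboat2 kept 15 shared events at both times.

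Anti-FoxA1-alone events were most numerous near Irf2bpl, a transcriptional cofactor gene of chromosome 12, with 18 at 24 h and 28 at 48 h. Itga6, an integrin chain of laminin receptors, had 16 and 22, and Tcf7l1, the WNT-responsive repressor of ES cells, 15 and 15. At 24 h Nipal3 and Plpp3 had 15 each, and Dip2b and Rai14 had 14. At 48 h Clmn had 24, Zmynd8 and Cipc 22 each, Frmd6 and Reep3 19 each, and Gtf2i 18. These genes were near shared events too: Irf2bpl had 12 and then 7, and Itga6 10 and then 8.

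Anti-FLAG-alone events were few, with a mean of 0.141 per gene at 24 h and 0.0817 at 48 h, beside 1.66 and 2.36 for anti-FoxA1 alone, so counts near a gene are not comparable between these classes. The highest count was 5, at Gm52481 on chromosome Y at 24 h, followed by 4 at Alyref2 and Pfkfb3 and 3 at Map10, Pde11a, Nck2 and Fgb. At 48 h it was 4 at Lpgat1 and 3 at Ccdc15, Ift52, Tbx3, Gars, Llph and Rictor, with 2 at Cilk1. The 4 events near Alyref2 at 24 h scored 46 to 65.

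Lists of genes were read against these background shares. They describe genes by neighbourhood alone, since the files hold no expression. Among 20 genes of naive pluripotency, 16 at 24 h and 15 at 48 h had a shared event within 50 kb. Those with the most shared events were Prdm14 (16 at 24 h and 7 at 48 h), Klf5 (11 shared and 7 anti-FoxA1-alone events at 24 h, 8 and 8 at 48 h) and Esrrb (9 and 9, then 7 and 13), factors that sustain self-renewal. Zfp42, the ES cell marker Rex1, had 0 shared and 4 anti-FoxA1-alone events at 24 h and 0 and 5 at 48 h, and Lin28a, an RNA-binding regulator of let-7, had 0 and 2, then 0 and 4. Nr0b1 had no event of any class. At 24 h Fgf4 (1), and at 48 h Klf2 (9) and Utf1 (5), also had anti-FoxA1-alone events and no shared one. At the start of Nanog, the homeobox factor of naive pluripotency, there was only an anti-FoxA1-alone event, scored 112 at 329 bp upstream at 24 h and, at another position, 63 at 962 bp at 48 h.

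Of 14 genes of primed pluripotency and early differentiation, 9 (64.3%) and 10 (71.4%) were near a shared event, beside 48.2% and 47.0% of all genes. Otx2, a homeobox factor of the epiblast and forebrain, had 8 shared and 8 anti-FoxA1-alone events at each time. One shared site lay at its start, where anti-FoxA1 scored 405 at 24 h and 520 at 48 h, 366 and 365 bp upstream. At 24 h anti-FLAG scored 53 on the same base, and its strongest event there scored 580 at 308 bp upstream. That event lay beside another anti-FoxA1 event, scored 289 at 334 bp upstream. At 48 h anti-FLAG scored 280 at 356 bp upstream. Etv5 went from 8 shared and 10 anti-FoxA1-alone events to 2 and 11. Sall2 (1 and 1) and Etv4 (1 and 4), and at 48 h Fgf5 (1), had anti-FoxA1-alone events without a shared one.

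Of 20 regulators of endoderm, the germ layer in which FoxA factors act, 14 and 12 were near a shared event. Foxa2, the closest relative of Foxa1, had a weak shared site 120 bp (24 h) and 118 bp (48 h) past a start, with scores of 62 and 128 for anti-FoxA1 and 46 and 72 for anti-FLAG. It also had an anti-FLAG-alone event of 98 and 126, 147 and 153 bp before another of its starts. Prox1 had its shared promoter site described above. Hnf4a, a nuclear receptor of liver, had an anti-FoxA1-alone event at the same base at both times, 61 bp upstream of a start, with scores of 55 and 93. Sox17 (5 and then 6), Foxa3 (4 and 5), Eomes (3 and 4) and Lhx1 (1 and 2) had anti-FoxA1-alone events at both times and no shared event. Hhex had 4 anti-FoxA1-alone events and no shared event at 24 h, and 1 shared event at 48 h.

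Of 20 liver genes, 13 at each time were near a shared event, with Apoa1, Apoa2 and Ahsg, which encode plasma proteins, at 4 each at 24 h. Alb, the albumin gene, whose enhancer is a classical FoxA target in liver, had 1 shared event at each time, 29483 and 29482 bp from the gene. Cyp7a1, of bile acid synthesis, and Serpina1a had none of any class. Afp (1), Apob (3) and Pck1 (2) had anti-FoxA1-alone events and no shared one at 24 h. The 13 genes are 65.0% of the list, beside 48.2% and 47.0% of all genes, and the pluripotency genes near a shared event are 80% and 75%.

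Among 17 feedback genes of Nodal, BMP, WNT and FGF signalling, 14 (82.4%) and 12 (70.6%) were near a shared event, beside 48.2% and 47.0% of all genes. Dusp6, a phosphatase that restrains ERK, had 8 and 5. At its start anti-FoxA1 scored 163 and anti-FLAG 53 at 24 h, and anti-FoxA1 alone scored 233 at 48 h. Id1, a target of BMP signalling (5 and 5), and Axin2, a target of WNT signalling (1 and 1), had anti-FoxA1-alone events only, as did Spry2 (7) at 48 h. Lefty1, an inhibitor of Nodal, went from 6 shared and 1 anti-FoxA1-alone event to 4 and 7. Tdgf1, a coreceptor of Nodal counted with the pluripotency genes, followed the course of Dusp6, with 113 and 65 at its start at 24 h and an anti-FoxA1-alone event of 194 at 48 h.

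Of 20 nuclear receptors and partner factors of FoxA, 12 and 10 were near a shared event, among them Tle3 (8 and 6) and Tle1 (6 and 5), Groucho corepressors, a family that FoxA proteins bind, and Grhl2 (8 and 3), an epithelial pioneer factor. Gata2 (3), Rarg (5) and Pparg (1) had anti-FoxA1-alone events and no shared one at 24 h. The start of Esr1, the oestrogen receptor gene, had an anti-FoxA1-alone event of 158 at 48 h. Among 20 chromatin regulators 16 and 14 were near a shared event, with Zmynd8 and Jarid2 first. At 24 h Kmt2d (2) and Hdac1 (2) had anti-FoxA1-alone events and Smarcc1 an anti-FLAG-alone event (1), without a shared one. Among 43 Forkhead genes 25 (58.1%) and 28 (65.1%) were near a shared event, beside the same 48.2% and 47.0% of all genes. They included Foxj1 of motile cilia and Foxn3 with 6 each at both times, and Foxd3 with 5 and 6. Foxo1 had 8 and 9 anti-FoxA1-alone events and no shared one, and Foxq1 had 3 and 3, the nearest 30 bp from the gene at both times.

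Neural progenitor regulators were near a shared event in 11 and 8 of 20 cases, mesoderm regulators in 10 and 10 of 20, and housekeeping genes in 10 and 8 of 20. The shares of these 3 lists, 40 to 55.0%, lay around the background of 48.2% and 47.0%. Of the housekeeping genes 7 at 24 h and 10 at 48 h had an anti-FoxA1-alone event and no shared one, 35.0% and 50% beside 25.3% and 29.7% of all genes. The start of Gusb, a lysosomal enzyme gene, had an anti-FoxA1-alone event at both times, 456 and 457 bp upstream. With 14 to 43 genes a list and no replicate libraries, no list is set apart by these counts.

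The native Foxa1 gene and the Rosa26 locus had no event of either antibody within the gene or 1 kb to either side. The nearest anti-FoxA1 event to Foxa1 (chr12:57540628-57548029) was 24617 bp away with a score of 46 at 24 h, and 3405 bp away with a score of 100 at 48 h, and neither had an anti-FLAG partner. The nearest anti-FLAG events were 188026 and 139902 bp away. At Rosa26 (chr6:113067428-113077244) the nearest anti-FoxA1 events were 15491 and 15492 bp away and the nearest anti-FLAG events 28914 and 28929 bp. Expression of the native gene was not measured here, so events of untagged FoxA1 and events of the tagged protein cannot be told apart in the anti-FoxA1-alone class.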

How the data were processed

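Each of the 4 libraries had 1 deposited list of ChExMix binding events, per the file headers, with a position and a score. What the authors' score measures is not stated in the headers or labels. The submitters' processing notes name BWA 0.7.17-r1188, Picard, SAMtools and mm10. Lists were used as deposited. Partners were events of the other antibody within 100 bp, and offsets were taken over mutually nearest pairs. Gene ends came from RefSeq genes and gene starts from the RefSeq promoter table, both GRCm38.p6 (21881 and 17491 protein-coding genes); starts were added after the files were seen. Python 3.11.15, numpy 2.4.6, pandas 2.3.3 and scipy 1.17.1 were used, and the scripts were tested on simulated lists. Depth is unknown, so precision is given by counting intervals. Genes named are the 8 with the most events of each class within 50 kb, those nearest the 5 highest-scoring events of each 1-antibody class, up to 4 members per gene list with the most shared events, members with events of 1 antibody only, and the 5 highest-scoring shared promoters; other members with an event at a start or none at all, and promoters with both antibodies or anti-FoxA1 alone, were chosen after their values were seen. Members and lists were chosen with earlier results of these data known. Some items of the series, and events on 1 chromosome, are not reported by name here.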

Additional observations from a re-analysis of the deposited data

How the results depend on the processing

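No paired analysis was possible because each antibody and time had 1 library, and for the same reason no library could be left out. No single difference changed sign under any alternative that was run. With the anti-FoxA1 list cut to the anti-FLAG length, the partner shares of the antibodies are nearly equal by construction, so their order there is not a result. Of the recomputed main values 51 stayed within, and 75 moved beyond, their counting interval (for counts of genes, 1.5 times). Values are given in the order 24 h, 48 h. The partner shares moved with the distance and with the list length. Within 50 bp the anti-FoxA1 share was 34.9 and 27.3% and the anti-FLAG share 75.9 and 80.9%, within 200 bp 43.8, 33.2, 89.4 and 93.2%, and on a shared base 2.75, 3.49, 6.05 and 10.5%. Events at or above the median score gave 43.5, 33.3, 89.5 and 94.1%, and an anti-FoxA1 list cut to the anti-FLAG length 68.9, 69.4, 67.0 and 67.9%. The gap in median score percentile between events with and without a partner went from 43 and 46.4 to 41.2 and 43.8 within 50 bp for anti-FoxA1 (45.4 within 200 bp at 48 h), and from 34.8 and 33.7 to 26.3 and 23.5 for anti-FLAG. The excess of anti-FoxA1-alone events at gene starts was 0.94 and 1.03 points within 250 bp, 2.77 and 3.38 within 5 kb, 1.29 and 1.51 above the median score, and 1.37 at 24 h with the list cut to length. For anti-FLAG alone it was -0.28 within 250 bp at 24 h and -2.92 and -2.29 within 5 kb; these start settings were chosen after seeing the data. At either gene end, shared minus anti-FoxA1-alone events differed by -2.30 and -2.87 points within 1 kb, -1.50 and -1.83 within 500 bp, -3.02 and -4.30 within 5 kb, and -1.67 and -1.94 above the median score, and shared minus anti-FLAG-alone events by 1.03 and 0.70, or 3.53 and 3.31 within 5 kb. The combined-list share of anti-FoxA1 events was 69.0 and 68.7% (shared) and 35.5 and 33.0% (alone) within 50 bp, 75.9, 75.1, 40.4 and 37.6% within 200 bp, and 84.1, 83.8, 59.8 and 57.4% above the median score. For anti-FLAG events it was 68.5 and 68.3% (shared) and, at 24 h, 27.6% (alone) within 50 bp, 75.8, 74.9 and 34.8% within 200 bp, and 84.2, 84.1, 54.2 and, at 48 h, 47.3% above the median. The median offset was 6 and 4 bp within 50 bp and likewise 6 and 4 bp above the median score. Genes near a shared event numbered 6454 and 6110 within 20 kb, and near an anti-FLAG-alone event 1312 and 794 within 20 kb and 4542 and 2939 within 100 kb. Depth, antibody affinity and binding cannot be told apart in list length, and an absent call is not absent binding.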
